A study of Mus musculus with 6 samples.

Results

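Tetraspanins are small proteins that cross the cell membrane several times and gather integrins, proteases and signalling receptors into membrane patches. The family includes surface organisers of adhesion such as CD9, CD81 and CD151, the late endosomal protein CD63, and a subgroup, TspanC8, that escorts the membrane protease ADAM10. In endothelium, tetraspanins are known for roles in adhesion, vessel formation and the storage of P-selectin. The genes described here were selected by their symbols, which had to read Tspan followed by a number or be Cd9, Cd37, Cd53, Cd63, Cd81, Cd82 or Cd151. The table held 27 such genes among 34745. No measured value decided whether a gene belonged, but the family was picked from earlier results of the same comparison. Its fold changes and calls are therefore given as a description and are not independent support for any pattern.

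RNA was sequenced from liver sinusoidal endothelial cells (LSECs), the fenestrated lining of the liver's blood spaces. The mice carried the genotype Tgfbr2 ECKO, an endothelial knockout of the type II TGF-beta receptor gene, or were Tgfbr2f/f (f/f) littermates with the floxed gene. Both groups had been injected with the liver toxin carbon tetrachloride (CCl4) into the peritoneum 2 times per week for 6 weeks, and each had 3 libraries. The promoter driving the deletion, the animals' age, the number of mice behind a library and the way LSECs were isolated are stated neither in the labels nor in the design text. P-values may thus reflect technical spread, and in bulk RNA fewer cells of a type cannot be told apart from less RNA per cell.

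Library totals lay between 17171850 and 25062755 counts. Tgfbr2 held 498, 487 and 511 CPM (counts scaled to a common library size) in the libraries labelled ECKO, against 387, 442 and 452 CPM in f/f libraries. Its log2 fold change was 0.22 (SE 0.10, edgeR quasi-likelihood adjusted p = 0.228). The targeted gene was thus not lower, the labels do not say which part of it is removed, and gene-level counts do not show the deletion. The defining LSEC marker Stab2, a scavenger receptor, was present at 2610 to 3584 CPM in the libraries labelled ECKO and 2864 to 3654 CPM in f/f libraries. The mitochondrial genome took 19.7% to 32.4% of counts in the libraries labelled ECKO and 11.5% to 23.5% in f/f libraries.

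RNA of most of the family was detected in these bulk libraries, which also held markers of other liver cells, and no read is assigned to a cell type. Of the 27 genes, 24 passed the filter on low counts, and 25 had at least 1 count. Tspan1 and Tspan10 had no count in any of the 6 libraries, which allows up to 0.172 to 0.1997 CPM in a library labelled ECKO and 0.124 to 0.147 CPM in an f/f library (3 counts, counting error only). By the authors' FPKM, which divides by gene length and so allows genes to be compared, Cd81 stood first at 149 ± 20.3 FPKM in the libraries labelled ECKO and 167 ± 4.19 FPKM in f/f libraries (SD, n = 3 each). Cd151 followed at 146 ± 26.0 and 138 ± 15.5 FPKM, then Cd9 at 114.5 ± 33.3 and 96.5 ± 28.1 FPKM, in the libraries labelled ECKO and in f/f libraries. Tspan7 averaged 82.5 ± 10.5 FPKM in the libraries labelled ECKO and 95.1 ± 10.6 FPKM in f/f libraries.

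Those 4 genes made up 59.6% of the summed tetraspanin FPKM in the libraries labelled ECKO and 55.6% in f/f libraries. With Tspan14 and Tspan31 the share was 76.1% and 70.2%, and the same 6 genes led in both groups. The order is coarse: of the 24 neighbouring pairs with any count, 18 overlapped in their library values in the libraries labelled ECKO and 15 in f/f libraries. In the libraries labelled ECKO each of the leading 5 genes overlapped with the next and Tspan31, the sixth, lay above Tspan4 in every library, whereas in f/f libraries Cd81 lay above Cd151, and Cd151 above Cd9, in every library. The library values of Tspan9 and of Tspan15, the next gene down, did not overlap in either group. Nor did those of Tspan17 and Tspan2. Cd63 held the eleventh place in the libraries labelled ECKO and the eighth in f/f libraries.

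**Figure D1:**
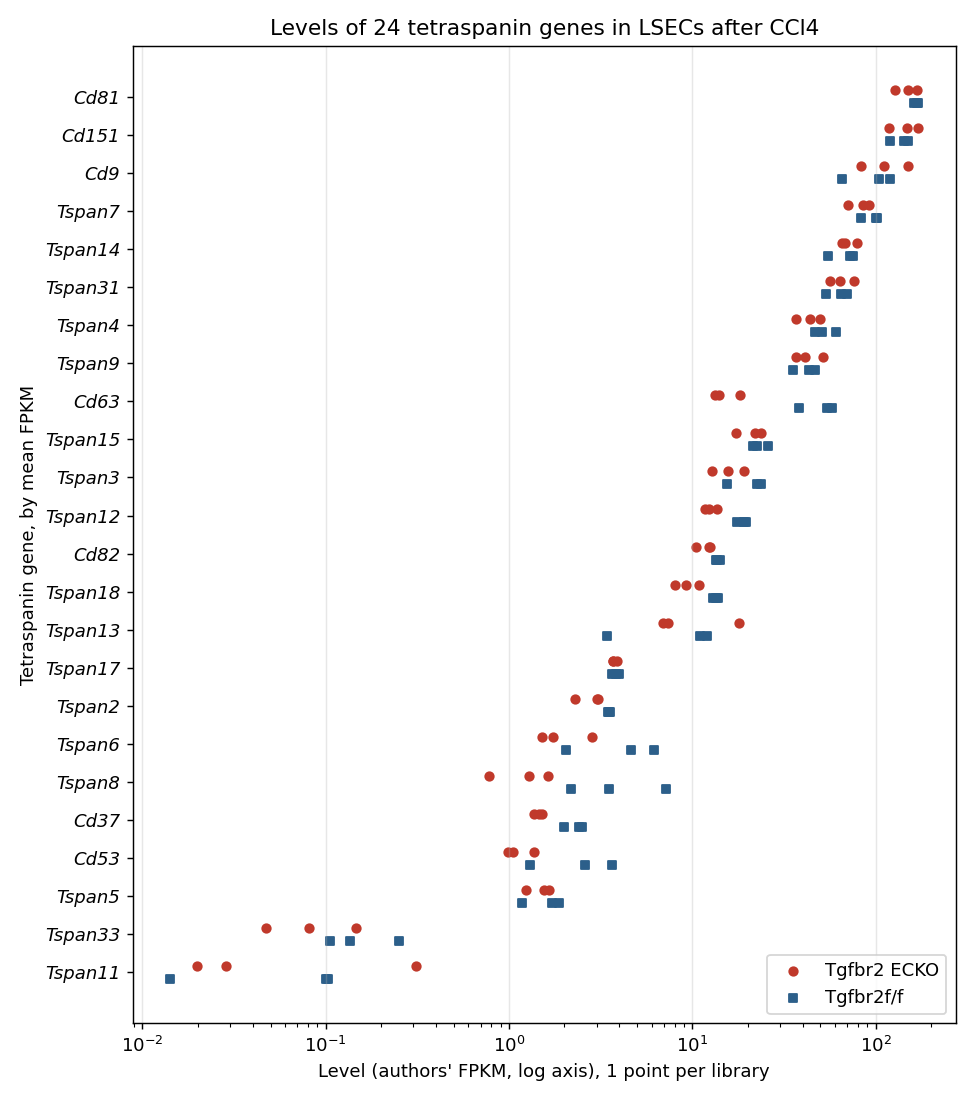
Authors' FPKM (log axis) of the 24 tetraspanin genes that passed the filter, ordered by mean FPKM, with 1 point per library (circles, Tgfbr2 ECKO; squares, Tgfbr2f/f). Cd81 and Cd151 lie at 118.7 FPKM or above in every library, and Cd63 lies at 13.2 to 18.2 FPKM in the libraries labelled ECKO and 38.2 to 57.9 FPKM in f/f libraries.

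Across the family, 1 of the 24 tested genes was lower and none was higher in the libraries labelled ECKO at an adjusted p under 0.05. The gene was Cd63. Among all 13692 genes tested, 2.79% were called lower and 1.24% higher, and nothing is read from the family's count beside these shares. At an unadjusted p under 0.05 edgeR held 7 tetraspanins lower and 5 higher, beside 13.1% and 10.4% of all genes. DESeq2 called 2 lower and 0 higher after adjustment, beside 1038 lower and 470 higher among the 13692 genes. The median log2 fold change was 0.02 over the 24 genes and 0.01 over all tested genes, and 17 of the 24 lay within 0.5 of 0. The sign of small differences depended on scaling: with total counts as the only scaling the median of all genes was -0.22, and 7 of the 24 tetraspanins were above 0, against 13 with TMM. Of all 13692 tested genes, 3067 were above 0 with total counts and 7035 with TMM. Summed over the family, the libraries labelled ECKO held 3586 ± 210 CPM and f/f libraries 3339 ± 40.6 CPM, but the FPKM sums, 826 ± 137 and 893 ± 100, had the opposite order and overlapped.

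**Figure D2:**
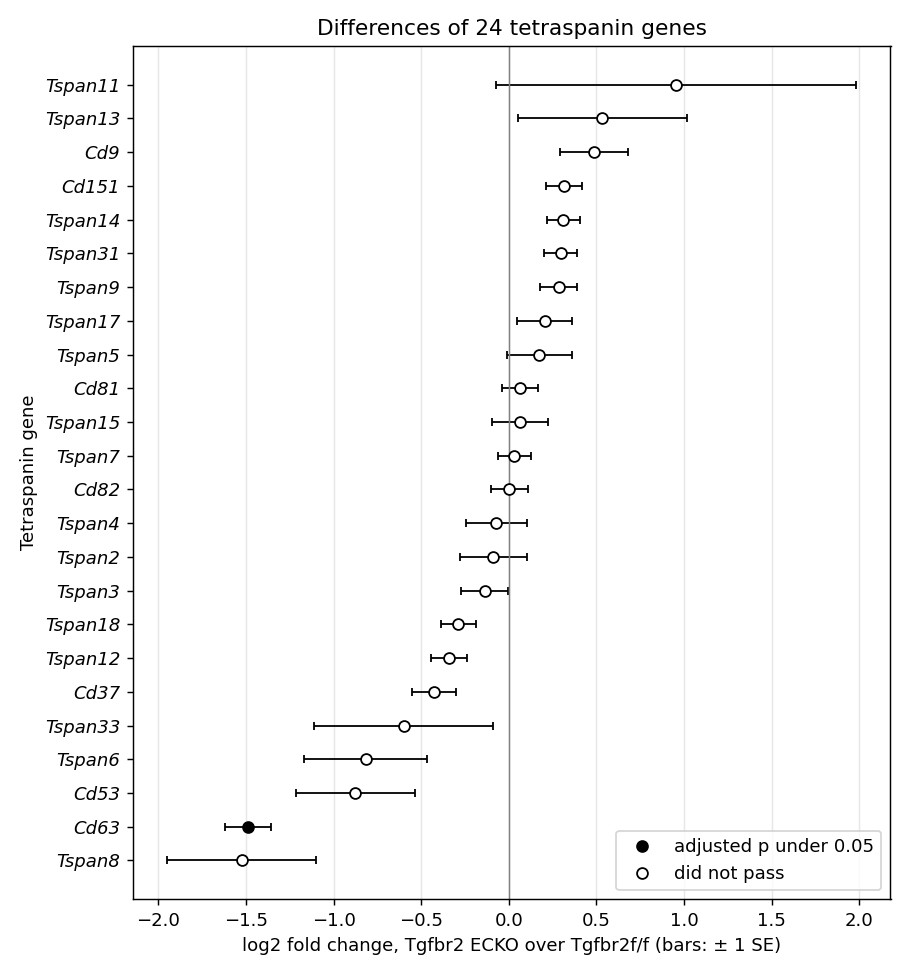
log2 fold change of Tgfbr2 ECKO over Tgfbr2f/f for 24 tetraspanin genes (points) with 1 SE to each side (bars), from the edgeR fit over all genes. The filled point, Cd63 at -1.49, passed an adjusted p of 0.05, and open points did not; Tspan8 and Tspan11 have wide bars at low counts.

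Cd63 (ENSMUSG00000025351, chromosome 10, 128908919 to 128912816 on mm10/GRCm38, plus strand) encodes the tetraspanin of late endosomes, lysosomes and secreted vesicles, which in endothelium also lies in the storage granules that hold P-selectin. Its counts were 246, 322 and 269 in the libraries labelled ECKO and 988, 993 and 1244 in f/f libraries. These were 16.4, 18.7 and 15.4 CPM in the libraries labelled ECKO, against 41.3, 48.8 and 51.5 CPM in f/f libraries. Every library labelled ECKO was below every f/f library, 18.7 CPM at most against 41.3 CPM at least. The log2 fold change was -1.49 (SE 0.13, edgeR quasi-likelihood adjusted p = 0.00853), so the level in the libraries labelled ECKO was 0.357 of that in f/f libraries. The call held in all 17 alternatives run, with log2 fold changes of -1.73 to -1.40. Leaving out each library in turn gave adjusted p values of 0.00240 to 0.0443, the highest without ECKO replicate 1.

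Cd63 was also set against Cd81 and against the summed family in the same library, so that the library scaling cancels. These ratios reuse the same Cd63 reads and are not a second observation. For every 100 FPKM of Cd81, the libraries labelled ECKO held 10.3, 10.8 and 9.255 FPKM of Cd63, against 23.6, 32.3 and 34.2 FPKM in f/f libraries. Cd63 made up 1.83% ± 0.116 of the summed tetraspanin FPKM in the libraries labelled ECKO and 5.59% ± 0.652 in f/f libraries (SD, n = 3 each). Cd151 stood at 97.2 ± 4.33 FPKM per 100 of Cd81 in the libraries labelled ECKO and 82.3 ± 7.40 in f/f libraries, and those groups did not overlap either. The same ratio of Cd9, 75.6 ± 12.01 in the libraries labelled ECKO and 57.6 ± 15.7 in f/f libraries, overlapped. With 3 libraries against 3, an exact permutation test of a single ratio cannot give a p below 0.1, and none is given.

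**Figure D3:**
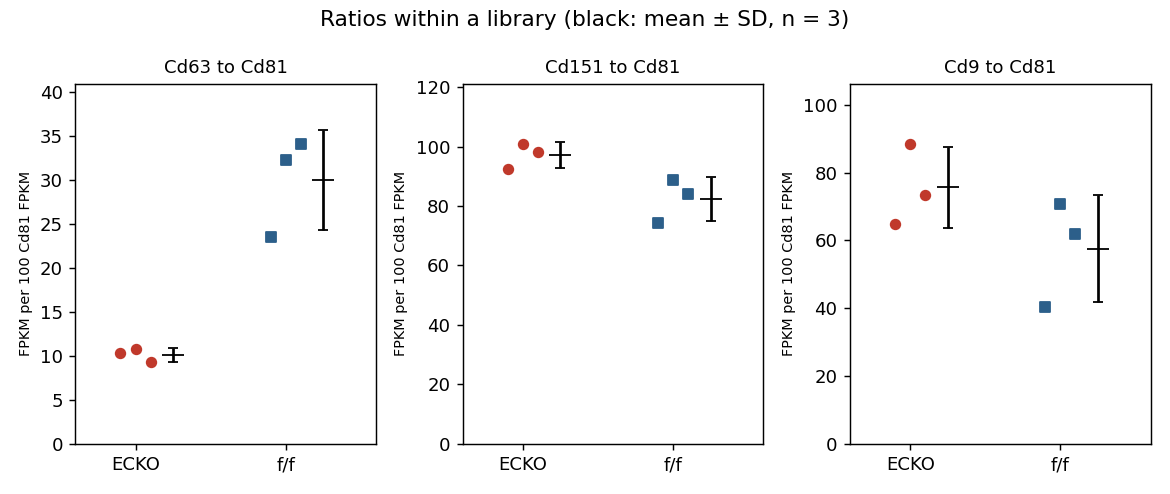
FPKM of Cd63, Cd151 and Cd9 per 100 FPKM of Cd81 in the same library (points, 1 per library; black, mean ± SD, n = 3; ECKO, libraries labelled Tgfbr2 ECKO; f/f, Tgfbr2f/f). Cd63 lies at 9.255 to 10.8 in the libraries labelled ECKO and 23.6 to 34.2 in f/f libraries, while the Cd9 groups overlap.

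Cd63 has a processed pseudogene, Cd63-ps, that is listed separately and can share its reads. Cd63-ps held 42, 84 and 67 counts in the libraries labelled ECKO and 137, 180 and 171 counts in f/f libraries, which was 18.4% ± 3.33 and 13.2% ± 1.86 of both genes' counts (SD, n = 3 each). Its own log2 fold change was -0.90 (SE 0.27, edgeR adjusted p = 0.1003), which did not pass. With both genes' counts added, an alternative chosen after the data were seen, the level was 19.2, 23.6 and 19.3 CPM in the libraries labelled ECKO and 47.0, 57.6 and 58.6 CPM in f/f libraries. The fitted log2 fold change was then -1.40 (SE 0.14, adjusted p = 0.00853). How the authors' counter split these reads is not stated.

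The promoter windows of Cd63 and of Cd81, the gene with the highest level, are shown because the first gene was called and the second was not. Each is 300 bases long, 250 before and 50 after the RefSeq start on GRCm38.p6, plus strand, at chr10:128909095-128909394 for Cd63 and chr7:143052500-143052799 for Cd81. Capitals mark every GGGCGG (the GC box of SP factors), TATAAA (the TATA box) and GGAAGT (a core of ETS factors), each searched on both strands.
Cd63: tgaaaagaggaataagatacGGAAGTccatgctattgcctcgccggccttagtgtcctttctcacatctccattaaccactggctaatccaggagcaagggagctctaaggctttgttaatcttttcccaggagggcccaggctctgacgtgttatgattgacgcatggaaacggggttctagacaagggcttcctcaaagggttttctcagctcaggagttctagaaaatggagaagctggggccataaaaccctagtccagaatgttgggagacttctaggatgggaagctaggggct
Cd81: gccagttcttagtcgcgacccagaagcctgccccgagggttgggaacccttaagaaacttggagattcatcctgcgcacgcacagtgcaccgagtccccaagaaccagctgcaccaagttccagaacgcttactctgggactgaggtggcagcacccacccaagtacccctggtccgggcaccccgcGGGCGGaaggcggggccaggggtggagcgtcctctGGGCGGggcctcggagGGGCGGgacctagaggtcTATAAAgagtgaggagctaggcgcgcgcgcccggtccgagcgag
The Cd81 window held 3 GC boxes and 1 TATA box at 65.7% G and C, and the Cd63 window held neither motif, with 1 ETS core at 49.3% G and C. The 2 windows are not placed alike. The Cd81 window spans the start of the gene as listed, 143052739. The Cd63 window lies wholly inside the gene as listed, which starts at 128908919, so it holds no base before that start. Windows were found for 26 of the 27 tetraspanins, all but Tspan18, and numbered 36 in all. GGGCGG was in 16 of these 36 windows (44.4%) and in 35.7% of all 32851 RefSeq windows of this length, TATAAA in 2 (5.56%) and 13.6%, and GGAAGT in 9 (25%) and 23.8%. CAGAC, a core bound by SMAD proteins, was in neither printed window. It was in 19 of the 36 tetraspanin windows (52.8%) and 49.6% of all windows. CACGTG, the core bound by the lysosomal regulators TFEB and MITF, was in 2 (5.56%) and 7.15%. A match is a description of the letters alone.

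Of 17 listed genes of vesicle formation and endosomal cargo, 2 were called higher, none lower and 15 did not pass, beside 1.24% of all tested genes called higher and 2.79% lower. The list's median log2 fold change was 0.12, against 0.01 over all genes. Selp, the P-selectin that CD63 helps to retain at the endothelial surface, held 85.9, 118 and 117 CPM in the libraries labelled ECKO and 43.4, 50.2 and 65.4 CPM in f/f libraries (log2 fold change 1.01, SE 0.18, adjusted p = 0.0314). Rab27a, a GTPase of granule docking and vesicle release, held 145, 161 and 121 CPM in the libraries labelled ECKO and 95.4, 97.3 and 96.0 CPM in f/f libraries (0.56, SE 0.12, adjusted p = 0.0467). For Selp and Rab27a alike, all libraries labelled ECKO were above all f/f libraries. The lysosomal membrane protein gene Lamp1 averaged 977 ± 44.7 CPM in the libraries labelled ECKO and 904 ± 38.1 CPM in f/f libraries (adjusted p = 0.509). Lamp2 averaged 935 ± 70.0 and 894 ± 36.4 CPM in the libraries labelled ECKO and in f/f libraries (adjusted p = 0.732).

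Markers of other liver cells differed in the same libraries as Cd63. Of all tested genes, 2.79% were called lower and 1.24% higher, and 15.2% were lower in every library labelled ECKO than in any f/f library. Of 13 stellate cell and fibroblast markers 7 were called lower, and their summed level was 609 to 856 CPM in the libraries labelled ECKO and 1507 to 2530 CPM in f/f libraries. Of 8 B cell markers 3 were lower, with sums of 7.61 to 12.3 CPM in the libraries labelled ECKO and 20.7 to 46.35 CPM in f/f libraries. Of 8 cholangiocyte markers 1 was lower, with sums of 145 to 196 CPM in the libraries labelled ECKO and 224 to 623 CPM in f/f libraries. Most of these sums was Spp1, which was not called, at 122 to 165 CPM in the libraries labelled ECKO and 186 to 530 CPM in f/f libraries. Platelet and megakaryocyte markers summed to 11.7 to 13.25 CPM in the libraries labelled ECKO and 14.5 to 18.8 CPM in f/f libraries, again without overlap, and none of 3 tested was called. Monocyte and neutrophil markers summed to 44.8 to 56.6 CPM in the libraries labelled ECKO and 54.4 to 130 CPM in f/f libraries, which overlapped, with none of 6 tested called and a median log2 fold change of -1.04. Hepatocyte markers, at 706 to 1495 CPM in the libraries labelled ECKO and 831 to 1378 CPM in f/f libraries, also overlapped, with none of 8 tested called. T and NK cell markers, at 1.975 to 4.13 and 1.99 to 4.225 CPM in the same order, overlapped too. Only 1 of these 8 markers, Nkg7, passed the filter and was tested, and it was not called. Kupffer cell and macrophage markers overlapped in their sums, at 36.6 to 57.1 CPM in the libraries labelled ECKO and 29.5 to 58.1 CPM in f/f libraries, and none of 7 tested was called. Single markers of that list went both ways without overlap. Clec4f, its defining marker, held 14.65, 7.09 and 14.3 CPM in the libraries labelled ECKO and 3.64, 5.31 and 6.09 CPM in f/f libraries (log2 fold change 1.26, SE 0.32, edgeR adjusted p = 0.0711). Timd4, below the filter, was also higher, and Marco was lower (-0.87, SE 0.35, edgeR adjusted p = 0.184). The 12 LSEC markers summed to 29130 to 34180 CPM in the libraries labelled ECKO and 26210 to 30530 CPM in f/f libraries, with Pecam1 called higher. Their median log2 fold change was 0.25, against 0.01 over all tested genes. No marker of these lists was at 0 in all libraries, and their part in the level of Cd63 was not tested.

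**Figure D4:**
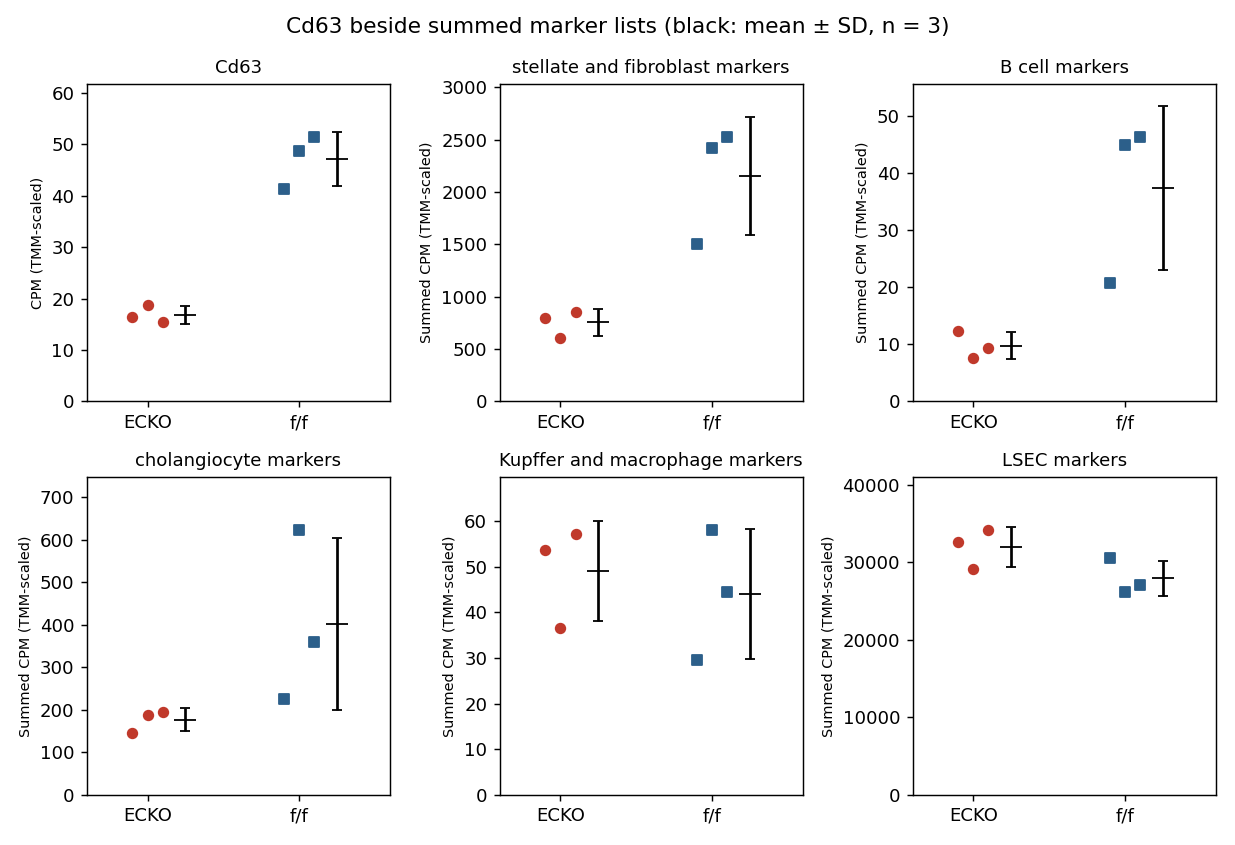
CPM of Cd63 and summed CPM of 5 marker lists by library (points, 1 per library; black, mean ± SD, n = 3; ECKO, libraries labelled Tgfbr2 ECKO; f/f, Tgfbr2f/f). Cd63 and the stellate, B cell and cholangiocyte sums are lower in all 3 libraries labelled ECKO than in any f/f library, while the macrophage and LSEC sums overlap.

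The other broadly expressed web tetraspanins did not pass. Cd81 (ENSMUSG00000037706, chromosome 7, 143052739 to 143067934), a partner of integrins and of immune receptors, held 486, 532 and 510.5 CPM in the libraries labelled ECKO and 536.5, 463 and 462 CPM in f/f libraries. The groups overlapped, with f/f replicate 1 the highest of all 6 (log2 fold change 0.07, SE 0.10, adjusted p = 0.732). Cd82, known for restraining cell migration, had a difference of 0.00 (SE 0.10), at 64.6 ± 2.81 CPM in the libraries labelled ECKO and 64.4 ± 6.41 CPM in f/f libraries. Cd151 (ENSMUSG00000025510, chromosome 7, 141467362 to 141471479), which binds laminin-binding integrins, held 301, 360 and 336 CPM in the libraries labelled ECKO, against 267, 275 and 260 CPM in f/f libraries. Its groups did not overlap, yet the log2 fold change of 0.31 (SE 0.10) had an adjusted p of 0.121.

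Cd9 (ENSMUSG00000030342, chromosome 6, 125460266 to 125494791), a tetraspanin of adhesion platforms and vesicles, held 236.5, 353 and 281 CPM in the libraries labelled ECKO and 162, 245 and 214 CPM in f/f libraries. Its values were spread widely within each group, and ECKO replicate 1 lay below f/f replicate 2 (log2 fold change 0.49, SE 0.19, adjusted p = 0.184). Among 13 adhesion partners 3 were called lower and none higher, beside 2.79% and 1.24% of all tested genes, and the median log2 fold change was -0.18 against 0.01 over all genes. Itga6, the alpha chain of a laminin-binding integrin that CD151 holds, averaged 25.5 ± 4.21 CPM in the libraries labelled ECKO and 65.7 ± 22.9 CPM in f/f libraries (log2 fold change -1.37, SE 0.25, adjusted p = 0.0337). Ptgfrn, a direct partner of CD9 and CD81, averaged 21.9 ± 2.65 CPM in the libraries labelled ECKO and 40.7 ± 5.40 CPM in f/f libraries (-0.90, SE 0.14, adjusted p = 0.0233). The third was Cd44, the hyaluronan receptor, at 2.09 ± 0.452 CPM in the libraries labelled ECKO and 8.49 ± 2.95 CPM in f/f libraries (-2.02, SE 0.31, adjusted p = 0.0212). In these libraries the stellate and B cell marker sums given above were also lower, and their part in Itga6, Ptgfrn and Cd44 was not tested. Itgb1, the beta chain shared by these integrins, averaged 739 ± 45.6 CPM in the libraries labelled ECKO and 752 ± 12.4 CPM in f/f libraries (adjusted p = 0.887).

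None of the 5 tested TspanC8 genes, regulators of ADAM10 transport and substrate choice, was called. Tspan14 (ENSMUSG00000037824, chromosome 14, 40906445 to 40966807) had the highest FPKM of them and held 195, 195 and 180 CPM in the libraries labelled ECKO, against 143, 161 and 154.5 CPM in f/f libraries. All libraries labelled ECKO were above all f/f libraries, but the log2 fold change of 0.31 (SE 0.09) had an adjusted p of 0.106. Tspan15 averaged 81.8 ± 8.47 CPM in the libraries labelled ECKO and 78.3 ± 16.9 CPM in f/f libraries. Tspan5 averaged 19.9 ± 4.13 and 17.6 ± 2.40 CPM, and Tspan17 13.5 ± 1.65 and 11.7 ± 1.495 CPM, in the libraries labelled ECKO and in f/f libraries. Tspan33 was near the detection limit, at 10, 17 and 6 counts in the libraries labelled ECKO and 23, 30 and 15 in f/f libraries. Adam10 itself averaged 158.5 ± 38.9 CPM in the libraries labelled ECKO and 167 ± 34.6 CPM in f/f libraries (adjusted p = 0.849). Of the 7 tested genes listed for the ADAM10 axis, Notch2, a receptor that ADAM10 cleaves, was called lower at 9.09 ± 1.77 CPM in the libraries labelled ECKO and 19.4 ± 3.70 CPM in f/f libraries (-1.095, SE 0.20, adjusted p = 0.0314). Cd44, an ADAM10 substrate described above, was the other, so that 2 of the 7 were called lower beside 2.79% of all tested genes.

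Tspan12 and Tspan18, tetraspanins with known vascular partners, lay lower without passing. Tspan12, which strengthens Norrin signalling through the receptor FZD4 in retinal vessels, held 54.8, 47.8 and 57.1 CPM in the libraries labelled ECKO and 71.3, 64.8 and 66.3 CPM in f/f libraries. The groups did not overlap (log2 fold change -0.34, SE 0.10, adjusted p = 0.105), and the gene passed with total count scaling (-0.58, adjusted p = 0.0262) and with limma on FPKM plus 0.1 (-0.58, adjusted p = 0.04535). Tspan18, which in endothelial cells sustains the calcium channel Orai1, averaged 86.6 ± 5.25 CPM in the libraries labelled ECKO and 106 ± 8.90 CPM in f/f libraries (-0.29, SE 0.10, adjusted p = 0.145), again without overlap. Fzd4 averaged 167 ± 35.0 CPM in the libraries labelled ECKO and 184 ± 48.7 CPM in f/f libraries (adjusted p = 0.732). Orai1 averaged 21.4 ± 6.14 and 17.8 ± 2.76 CPM in the libraries labelled ECKO and in f/f libraries (adjusted p = 0.486). None of 4 tested genes of the Norrin axis and none of 5 genes of store-operated calcium entry was called.

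The leukocyte tetraspanins were low. Cd53, a pan-leukocyte surface protein (ENSMUSG00000040747, chromosome 3, 106759921 to 106790149), held 31, 41 and 34 counts in the libraries labelled ECKO and 57, 112 and 94 counts in f/f libraries. In CPM these were 2.06, 2.38 and 1.95 in the libraries labelled ECKO and 2.38, 5.50 and 3.89 in f/f libraries, so the groups only just failed to overlap (log2 fold change -0.88, SE 0.34, adjusted p = 0.174). Cd37, found mainly on B cells, held 11.2, 9.935 and 11.01 CPM in the libraries labelled ECKO and 14.2, 14.8 and 14.2 CPM in f/f libraries (-0.43, SE 0.13, adjusted p = 0.0992), without overlap. Tspan32, a tetraspanin of blood cells, was below the filter, with 1, 0 and 0 counts in the libraries labelled ECKO and 5, 6 and 22 counts in f/f libraries. Its ratio of summed counts per library size, ECKO over f/f, was 0.0417 (exact 95% interval 0.00103 to 0.249, counting error only). That value changed when single libraries were left out. Without f/f replicate 1 or replicate 2 it was 0.0320 or 0.0358. Leaving out f/f replicate 3 gave 0.0810. Leaving out replicate 2 or replicate 3 of the ECKO group gave 0.0639 or 0.0643, and with its replicate 1 left out that group had no count. The pan-leukocyte markers Ptprc, Coro1a, Laptm5 and Cd52 summed to 10.2 to 16.0 CPM in the libraries labelled ECKO and 12.9 to 26.2 CPM in f/f libraries, with none called. In the same libraries 3 of 8 B cell markers were called lower, beside 2.79% of all tested genes.

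Tspan8, a tetraspanin of epithelia (ENSMUSG00000034127, chromosome 10, 115817284 to 115849893), had the lowest fold change of the family without passing. It held 26, 41 and 57 counts in the libraries labelled ECKO and 101, 235 and 136 counts in f/f libraries, or 1.73, 2.38 and 3.27 CPM against 4.22, 11.55 and 5.63 CPM. The groups did not overlap, and f/f replicate 2 stood far above the other libraries (log2 fold change -1.52, SE 0.42, adjusted p = 0.0893). The cholangiocyte marker sum was highest in the same f/f replicate 2, at 623 CPM against 224 and 358.5 CPM in f/f replicates 1 and 3. Most of that sum was 1 gene, Spp1, at 530 CPM against 186 and 302 CPM. Krt19, the defining marker, held 19.85 CPM in f/f replicate 2, against 10.3 and 13.3 CPM in f/f replicates 1 and 3. Mesothelial markers summed to 23.2 to 70.2 CPM in the libraries labelled ECKO and 42.2 to 88.6 CPM in f/f libraries. Of the 5 tested, 2 were called lower, beside 2.79% of all tested genes. The part of either cell type in Tspan8 was not tested. DESeq2 called Tspan8 lower (-1.54, adjusted p = 0.00759), as did edgeR without f/f replicate 1 (-1.78, adjusted p = 0.0370) and with total count scaling (-1.79, adjusted p = 0.0365).

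**Figure D5:**
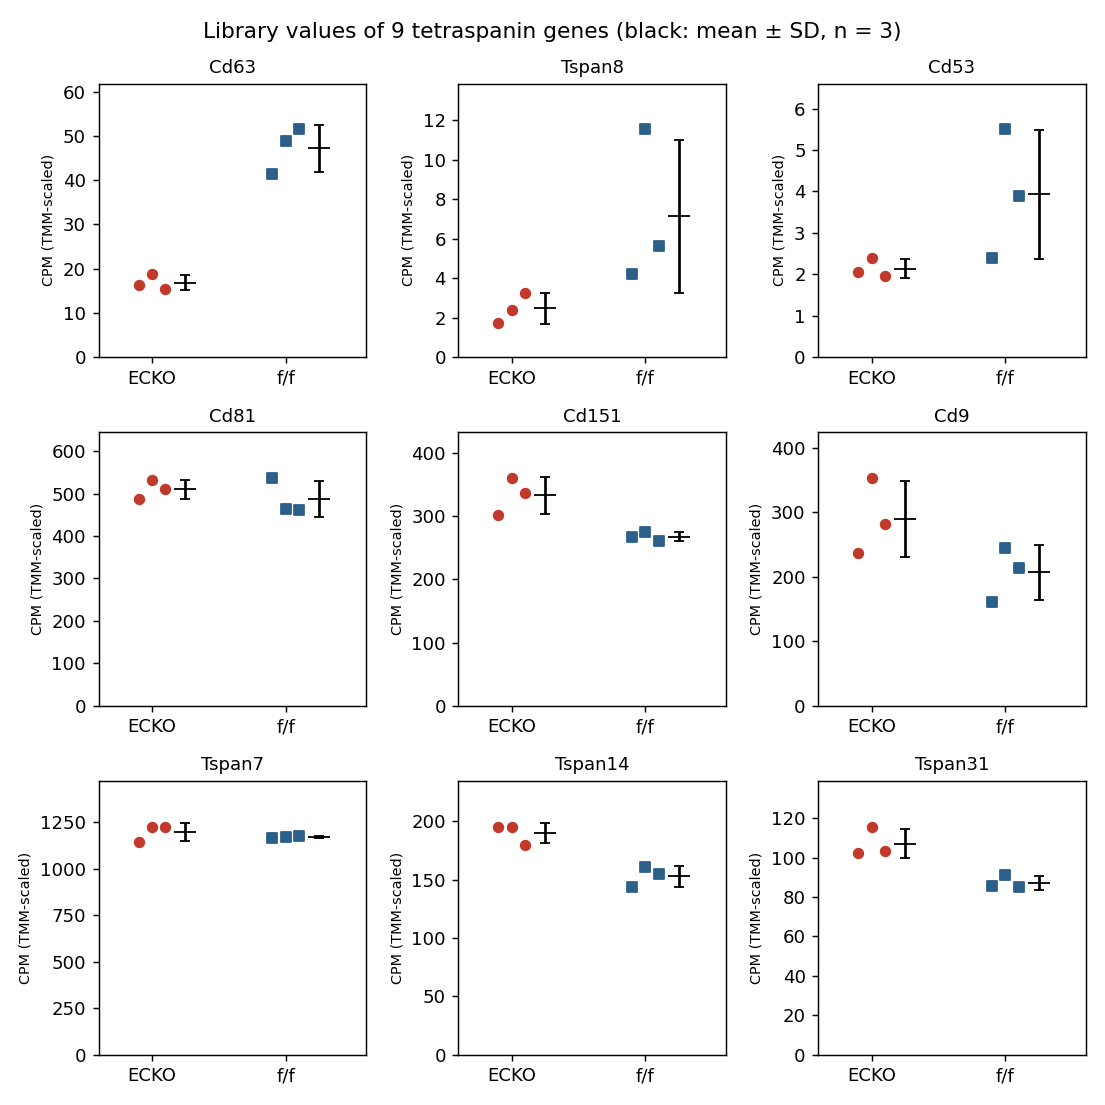
CPM of 9 tetraspanin genes by library (points; black, mean ± SD, n = 3; each vertical axis starts at 0; ECKO, libraries labelled Tgfbr2 ECKO; f/f, Tgfbr2f/f). Cd63, Tspan8 and Cd53 are lower in every library labelled ECKO, the last by a margin too small to see, and Cd151, Tspan14 and Tspan31 are higher in every one; of these Cd63 passed the threshold.

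Tspan7, a tetraspanin better known from neurons and pancreatic islets, held 1144, 1226 and 1223 CPM in the libraries labelled ECKO and 1166, 1171 and 1178 CPM in f/f libraries (ENSMUSG00000058254, chromosome X, 10485158 to 10596605). Its f/f libraries differed by little and lay inside the span of the others (log2 fold change 0.03, SE 0.09, adjusted p = 0.863). Tspan31 (ENSMUSG00000006736, chromosome 10, 127067317 to 127070261), a gene amplified in human sarcomas, held 102, 116 and 103 CPM in the libraries labelled ECKO and 85.5, 91.2 and 85.0 CPM in f/f libraries. No library overlapped, and the log2 fold change was 0.30 (SE 0.09, adjusted p = 0.116). Tspan31 shares 604 bases with Cdk4 on the opposite strand, and the strand setting of the counting is not stated, so their reads may mix. Cdk4, a cell cycle kinase, averaged 91.8 ± 3.68 CPM in the libraries labelled ECKO and 104 ± 3.01 CPM in f/f libraries (log2 fold change -0.18, adjusted p = 0.261). Cd37 and Tead2, a transcription factor gene, share 4 bases in the same way, and Tead2 averaged 20.7 ± 1.99 CPM in the libraries labelled ECKO and 27.6 ± 4.53 CPM in f/f libraries (adjusted p = 0.152).

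Tspan9, a tetraspanin of platelets and endothelium, held 353, 413 and 350 CPM in the libraries labelled ECKO and 295, 299.5 and 321 CPM in f/f libraries, without overlap (log2 fold change 0.28, SE 0.11, adjusted p = 0.159). Tspan4, which builds migrasomes, averaged 152 ± 8.60 CPM in the libraries labelled ECKO and 159 ± 40.6 CPM in f/f libraries, where replicate 1 held 206 CPM and the others 143 and 129 CPM. Tspan13 varied most among the genes of middling level, with 24.9, 50.4 and 20.8 CPM in the libraries labelled ECKO and 10.1, 27.0 and 29.4 CPM in f/f libraries. Tspan11 held 30 of its 59 counts in ECKO replicate 2, and its log2 fold change of 0.96 (SE 1.03) was -1.165 without that library. Tspan3 averaged 29.5 ± 3.24 CPM in the libraries labelled ECKO and 32.4 ± 4.02 CPM in f/f libraries. Tspan2 averaged 16.4 ± 3.67 and 17.4 ± 2.25 CPM, and Tspan6 5.10 ± 1.37 and 9.01 ± 3.77 CPM, in the libraries labelled ECKO and in f/f libraries. Tspan6 had an adjusted p of 0.212, which was 0.0485 without f/f replicate 1.

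In all, 10 of the 24 tested tetraspanins separated the libraries of the groups. Of these, 6 were lower in the libraries labelled ECKO, where 15.2% of all tested genes were, and 4 were higher, where 15.7% were. The 4 higher genes, Cd151, Tspan9, Tspan14 and Tspan31, kept a positive log2 fold change in each of 16 alternatives, down to 0.07, 0.04, 0.07 and 0.06 in that order of genes, and none passed in any of them. Among members that lie near each other, Cd151 and Tspan4 are 3760 bases apart on chromosome 7 and had log2 fold changes of 0.31 and -0.07, and Tspan9 and Tspan11, 7418 bases apart on chromosome 6, had 0.28 and 0.96. The mean levels over the 6 libraries were 142 and 48.15 FPKM for Cd151 and Tspan4, and 42.5 and 0.09605 FPKM for Tspan9 and Tspan11. Tspan32 lies 33094 bases from Cd81, with means of 0.0422 and 158 FPKM for Tspan32 and Cd81. Tspan18 and Cd82, 84605 bases apart on chromosome 2, had means of 11.4 and 12.75 FPKM and log2 fold changes of -0.29 and 0.00.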

How the data were processed

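Libraries from LSECs of 3 Tgfbr2 ECKO and 3 Tgfbr2f/f samples were grouped by their titles. Raw read counts and the authors' FPKM of each gene were deposited in 1 table, per the file headers. Per the submitters' processing notes, HISAT2 2.0.4 and StringTie 1.3.0 were used on mm10 and GRCm38.p4. No counter, annotation or strand setting is named in the labels or headers. The number of per-sample columns left out was 0. All 27 gene identifiers matched GENCODE M21 on GRCm38 as protein-coding genes.

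Counts were tested with edgeR 4.0.16 in R 4.3.3: filterByExpr (minimum count 10, total 15) left 13692 genes, scaled by TMM and fitted by the robust quasi-likelihood F-test, genotype only, two-sided, with Benjamini-Hochberg adjustment over all genes. SE is the absolute log2 fold change over the square root of F. CPM uses the TMM-scaled library size. The code was tested on simulated data. Alternatives used DESeq2 1.42.0, limma 3.58.1 (voom, and log2 of FPKM plus 0.1 or 1), other scalings and filters, a replicate block, and each library left out. The members, lists and markers were chosen with earlier results of these data known. Values per library are given for members that passed, that separated the groups with an absolute log2 fold change of at least 0.5, or that were among the 6 highest by FPKM, and for others where a sentence turns on them. No duplicate libraries were found.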

Additional observations from a re-analysis of the deposited data

How the results depend on the processing

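Cd63 kept its direction and its call under all 17 alternatives run. The number of tetraspanins called lower was 3 with total count scaling, 2 with DESeq2 and 2 with FPKM plus 0.1, and 1 to 3 without single libraries (3 without f/f replicate 1), and none was called higher. Over all genes the calls higher and lower were 63 and 1209 with total count scaling, 470 and 1038 with DESeq2, 49 and 720 with FPKM plus 0.1, 39 and 539 with FPKM plus 1, and 115 and 200 with limma-voom. Without single libraries they were 14 to 246 higher and 21 to 766 lower, the fewest without ECKO replicate 1 and the most without f/f replicate 1. Lower calls made up 69.2% with TMM, 95.05% with total counts and 93.6% with FPKM plus 0.1. With the replicate block 131 genes were higher and 285 lower, and Cd63 was at -1.49 (adjusted p = 0.0167). Same-numbered libraries had correlations of deviations of 0.095, 0.152 and -0.052, and differently numbered ones had -0.153 to 0.091. With 3 libraries a side these values cannot decide whether the numbers pair the libraries. The causes of these changes were not tested.

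Of 383 comparisons of a member under an alternative, 32 changed sign, over 9 genes that did not pass, and none of the 32 passed. With total counts, FPKM plus 0.1 and FPKM plus 1 the log2 fold changes were -0.15, -0.16 and -0.15 for Tspan15, -0.21, -0.21 and -0.20 for Tspan7, -0.032, -0.030 and -0.024 for Tspan17, -0.16, -0.17 and -0.17 for Cd81, -0.23, -0.23 and -0.21 for Cd82, and -0.092, -0.073 and -0.051 for Tspan5. Cd82 was also -0.0104 with RLE size factors, -0.0078 with upper-quartile scaling, -0.0057 with at least 1 CPM in 3 libraries and -0.0105 with DESeq2. Without single libraries the ranges were -0.052 to 0.096 for Cd82, -1.165 to 1.42 for Tspan11, -0.034 to 0.26 for Tspan15, -0.22 to 0.0875 for Tspan2 and -0.19 to 0.16 for Tspan4.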
